A study of Mus musculus with 14 samples.

Results

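Adrenomedullin (Adm) and the 4 genes of its receptor complex, Calcrl, Ramp1, Ramp2 and Ramp3, were followed in the dissected outer layer of the fetal mouse heart. They were taken from the expression table by gene name, and all 5 were among the 15894 genes listed. RNA had been sequenced from the epicardium, the outer cell sheet of the heart, together with the connective space beneath it, at E16.5, a fetal stage at which lymphatic vessels are growing over the ventricles. Each library came from a pool of 2 hearts, and the 14 libraries were 3 ventral and 3 dorsal ones from female hearts (numbers 1 to 3), 4 ventral (numbers 4 to 7) and 3 dorsal (numbers 4 to 6) ones from male hearts, and a further male library, number 7, whose labels disagree: the title and the source both say dorsal, and only the tissue entry says ventral. It is called here the library of unsettled region and entered only stated alternatives. All 14 carry the genotype Tbx18Cre in the labels, a Cre driven by an epicardial gene, no group lacks it, and the study's text speaks of wild-type hearts. No treatment is named. The regional comparison asks which signals differ between the ventral and the dorsal surface, where the lymphatic vessels have different origins.

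Adrenomedullin is a secreted vasoactive peptide. Its receptor is the G protein-coupled receptor encoded by Calcrl, which reaches the cell surface only with a single-pass accessory protein of the RAMP family. With RAMP2 or RAMP3 the receptor prefers adrenomedullin, whereas with RAMP1 it is the receptor of calcitonin gene-related peptide (CGRP). Loss of Adm, Calcrl or Ramp2 in mice leads to fetal oedema with defective lymphatic and blood vessels, and endothelial cells are the best known site of Calcrl and Ramp2. The epicardium is a known source of adrenomedullin in the fetal heart. Expression of Adm in many cells responds to low oxygen through hypoxia-inducible factors.

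None of the 5 genes passed the main unpaired test for a regional or a sex difference, though some unpaired alternatives given below called members. With ventral and dorsal libraries paired by their number, Ramp1 (adjusted p = 0.0382) and Ramp2 (adjusted p = 0.0321) were called in female hearts, and Calcrl (adjusted p = 0.0486) and Ramp1 (adjusted p = 0.0496) over both sexes, by limma. The latter 2 calls were lost once GC and length trends had also been removed (adjusted p = 0.0649 and 0.0619). The share of all genes called with this pairing is not given here, so the paired calls have no background beside them. Over all alternatives tried, 30 to 4318 genes were called in female hearts and 0 to 3646 over both sexes. The unpaired estimates over both sexes were 0.63 for Ramp1, -0.89 for Calcrl and -0.52 for Ramp2, with libraries of the 2 sides overlapping in at least 1 sex for each. Levels are given as normalized CPM, the authors' CPM on an effective library size, and differences on the scale of log2(normalized CPM + 1), ventral minus dorsal unless stated. With limma and a Benjamini-Hochberg adjusted p under 0.05 over all genes, 0 of 5 members were called in female hearts, where 27.8% of 14411 genes were called. In male hearts 0 of 5 were called, as was 0.0% of 14917 genes. Over both sexes, with sex as a covariate, 0 of 5 were called against 18.9% of 15772 genes. The regional change differed between the sexes for 0 of 5 members and 2.73% of genes, and the sexes differed for 0 of 5 members and 10.9% of genes. The median change of the members was -0.53 in female hearts, -0.36 in male hearts and -0.41 over both sexes, beside 0.0113, 0.0301 and 0.0346 over all genes. An unadjusted p under 0.05 was reached by 2 of 5 members in female hearts, 2 in male hearts and 3 over both sexes. Over all genes it was reached by 40.5% in female hearts, 14% in male hearts and 34.5% over both sexes. In the other 2 comparisons it was reached by 0 members. The shares of all genes there were 15.4% for the difference of the regional change and 25.6% for sex. By edgeR on the recovered reads 0 of 5 members were also called in each comparison. The unpaired p-values measure the spread between libraries, and the labels say neither whether pools came from separate litters nor what a library's number marks. If libraries of the same number are parts of the same pool, the sex comparison counts these parts as separate replicates. The unpaired regional comparisons would then also hold any spread between pools, which pairing takes out. Whether pairing lowered the spread of the members called with it was not tested.

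**Figure D1:**
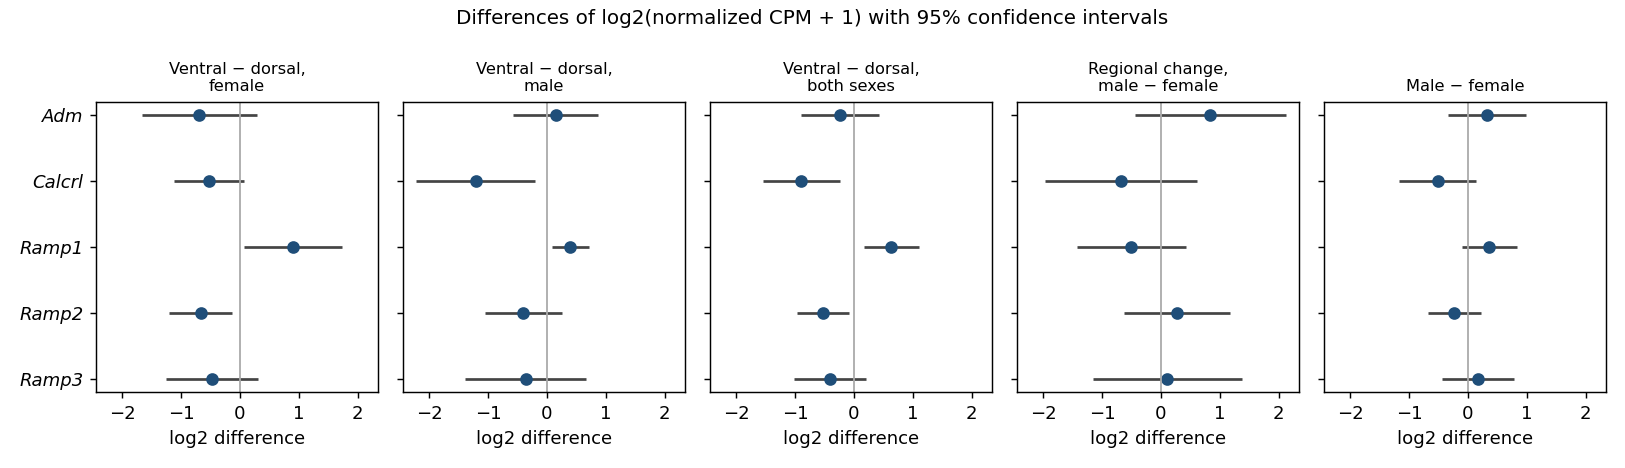
Differences of log2(normalized CPM + 1) for the 5 genes (points) with 95% confidence intervals from limma (lines) in the 5 comparisons, named above each panel. The intervals of Ramp1 lie above 0 and those of Calcrl and Ramp2 below 0 over both sexes, while Adm and Ramp3 span 0 in every panel.

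Libraries differed in cell content, and 2 stood apart. Reads on listed genes ranged from 13918995 to 25221314 per library, at which 3 reads correspond to 0.116 to 0.217 normalized CPM. Female dorsal 1 held the highest level of 4 of 4 listed atrial cardiomyocyte markers, with a summed level of 12460 against 473.6 to 1992 in the 13 other libraries. Male ventral 7 held the lowest level of 7 of 8 blood endothelial markers and the highest of 5 of 5 listed erythroid markers, with a summed endothelial level of 279.4 against 477.7 to 910.2 elsewhere. The summed level of the 10 epicardial markers was 1809 to 2953 in female ventral, 288.6 to 659.2 in female dorsal, 2072 to 6365 in male ventral and 1677 to 4452 in male dorsal libraries, so the labelled tissue was present throughout and its markers were lowest in the female dorsal libraries. In female hearts 10 of 10 epicardial, 5 of 8 fibroblast, 4 of 6 macrophage and 3 of 6 lymphatic endothelial markers were called higher ventrally, against 14.5% of all genes. Of the smooth muscle markers 3 were lower and 1 higher. In male hearts none of these was called, where 0 of 14917 genes were. The male changes were above 0 for 10 of 10 epicardial, 8 of 8 fibroblast, 6 of 6 macrophage, 5 of 6 lymphatic endothelial and 2 of 6 smooth muscle markers. Smooth muscle Myh11 was at or below 3 reads in 3 libraries, and of the defining markers Bmp10, Epb42 and Tubb3 were among those not listed. The part of these shifts in the results below was not tested beyond the covariates named. In pooled tissue, fewer cells of a type and less RNA per cell cannot be told apart.

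Between genes, Ramp1 had the highest level per kilobase of exon, with a median of 33.3 normalized CPM per kilobase over the 14 libraries (range 11.5 to 42.9). Adm followed at 15.47 (5.17 to 28.5), Ramp2 at 14 (6.33 to 28.1), Calcrl at 9.24 (1.55 to 21.4) and Ramp3 at 1.153 (0.0771 to 2.34). Ramp1 stood above Adm in 12 of 14 libraries, above Ramp2 in 12 and above Calcrl in 13. Adm and Ramp2 were neighbours whose ranges overlapped almost fully, with Adm the higher in 8 of 14 libraries, whereas Ramp3 was below each of the others in 14 of 14. The place of Ramp2 depended on its length. Its annotated exons total 3301 bases and overlap those of the neighbouring gene Vps25, while the principal transcript has 1178 bases. With principal transcript lengths, an alternative added after the data had been seen, the median of Ramp2 was 39.25, close to 43.28 for Ramp1, and Ramp2 was the higher of the 2 in 8 of 14 libraries.

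**Figure D2:**
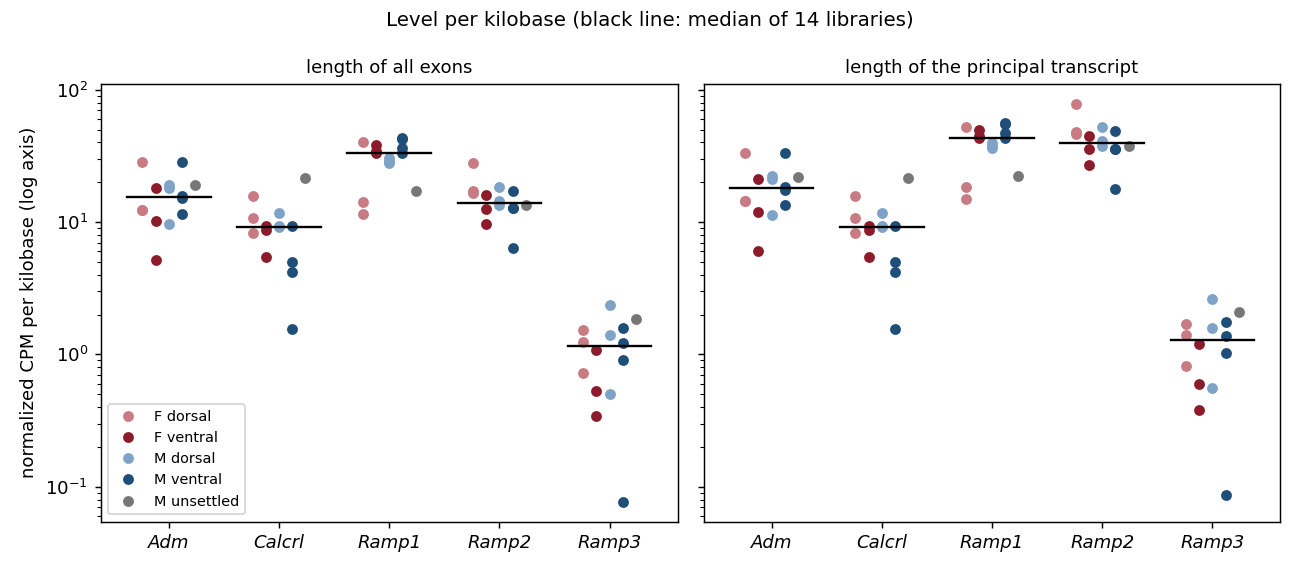
Level per kilobase of each gene in the 14 libraries, in normalized CPM per kilobase on a log axis, with the length of all exons (left) and of the principal transcript (right). Points are libraries coloured by group and black lines medians. Ramp2 moves from a median of 14 to 39.25 between the panels and Ramp3 stays lowest.

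Adm (ENSMUSG00000030790) is a protein-coding gene on chromosome 7 of GRCm38, 110627661 to 110629820 on the plus strand, with an antisense gene, Gm28863, inside its span but not on its exons. It encodes the ligand. In female dorsal libraries 1 to 3 it measured 46.16, 20.12 and 19.89 normalized CPM and in female ventral libraries 1 to 3 it measured 8.37, 16.45 and 29.47. In male dorsal libraries 4 to 6 it measured 15.77, 29.46 and 30.98, in male ventral libraries 4 to 7 it measured 24.47, 18.66, 45.98 and 25.63, and the library of unsettled region held 30.64. The groups overlapped in both sexes, with female dorsal 1 and male ventral 6 the highest and female ventral 1 the lowest. The female change was -0.69 (95% confidence interval -1.66 to 0.29, adjusted p = 0.268) and the male change 0.15 (-0.575 to 0.873, adjusted p = 0.86). Their difference, 0.84, had an interval of -0.447 to 2.12 and an adjusted p of 0.548, so the opposite directions were not shown to differ. Over both sexes the change was -0.24 (-0.904 to 0.421, adjusted p = 0.614). The female change was -0.30 without female dorsal 1, -0.25 without female ventral 1 and -1.1 without female ventral 3. The male direction turned without male dorsal 4, to -0.15, and without male ventral 6, to -0.0977.

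The sequence before the start of Adm is shown because hypoxia-inducible factors are known to act on this gene and the oxygen-sensing genes below were measured beside it, and that of Ramp1 for comparison, as the member with the clearest male difference. Both are the 250 bases before the RefSeq start of the gene on GRCm38.p6, plus strand, at chr7:110627407-110627656 and chr1:91179572-91179821. Capitals mark ACGTG or GCGTG on either strand, the core letters of a hypoxia response element (CACGC is GCGTG on the other strand).
Adm: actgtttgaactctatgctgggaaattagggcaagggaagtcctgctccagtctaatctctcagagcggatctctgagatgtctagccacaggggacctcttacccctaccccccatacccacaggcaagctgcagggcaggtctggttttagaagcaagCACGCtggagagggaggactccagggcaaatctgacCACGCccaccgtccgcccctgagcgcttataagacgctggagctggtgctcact
Ramp1: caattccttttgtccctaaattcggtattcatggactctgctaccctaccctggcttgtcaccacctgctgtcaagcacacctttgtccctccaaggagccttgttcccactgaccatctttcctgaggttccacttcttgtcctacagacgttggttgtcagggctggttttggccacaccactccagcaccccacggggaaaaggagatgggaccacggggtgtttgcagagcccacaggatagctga
Adm held 2 matches, which begin 90 and 54 bases before the start, and Ramp1 held none. Of the 32851 RefSeq windows of this length, 38.6% held at least 1 match, so the letters alone are common and mark no site. Calcrl had none in its window and Ramp3 had 2, and Ramp2 is not in the promoter table.

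Calcrl (ENSMUSG00000059588, chromosome 2, 84330626 to 84425411, minus strand) encodes the receptor shared by the whole complex. Its levels in female dorsal libraries 1 to 3 were 76.73, 40.21 and 52.23 normalized CPM, and in female ventral libraries 1 to 3 they were 45.94, 42.77 and 26.72. Male dorsal libraries 4 to 6 held 45.63, 44.60 and 57.49, male ventral libraries 4 to 7 held 20.54, 45.83, 24.36 and 7.55, and the library of unsettled region held 104.3. The sides overlapped in both sexes, in male hearts only through ventral 5, and male ventral 7 was the lowest and the library of unsettled region the highest of all 14. In female hearts the change was -0.53 (95% confidence interval -1.12 to 0.0661, adjusted p = 0.166) and in male hearts -1.21 (-2.22 to -0.196, adjusted p = 0.309). Over both sexes it was -0.89 with a standard error of 0.308, and an adjusted p of 0.0548. With libraries paired by replicate number the limma change over both sexes was -0.64 and was called (adjusted p = 0.0486). Male ventral 7, which has no dorsal partner of settled region, does not count towards that change. In pairs 2 and 5 Calcrl was slightly higher ventrally than dorsally (42.77 against 40.21 and 45.83 against 44.60), and in the remaining pairs it was lower. The unpaired change was called when the library of unsettled region was counted among the dorsal ones (-1.07, adjusted p = 0.0311). It was also called without male ventral 5 (-1.05, adjusted p = 0.0179). The paired call was lost after removal of GC and length trends (adjusted p = 0.0649). The female change was -0.28 without female dorsal 1 and -0.29 without female ventral 3. Without male ventral 7 the male change was -0.76, with an adjusted p of 0.504.

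The low Calcrl level of male ventral 7 was accompanied by low endothelial markers, and its summed smooth muscle and pericyte markers, at 459.8, were also the lowest. Its summed ventricular cardiomyocyte markers (17490) were the lowest too, and its epicardial (6365) and erythroid (53310) sums were the highest. Over the 14 libraries Calcrl correlated with the blood endothelial mean at 0.807 and with the smooth muscle and pericyte mean at 0.785 (Pearson r). For Ramp2 these values were 0.696 and 0.809. With the macrophage and epicardial means the values were -0.585 and -0.524 for Calcrl and -0.816 and -0.786 for Ramp2. Neither the smooth muscle and pericyte mean nor the macrophage mean was used as a covariate. Measured against the mean log2 level of the 8 blood endothelial markers in the same library, Calcrl stood at -1.77 to -1.0 in male ventral, -1.22 to -0.536 in male dorsal, -1.15 to -0.963 in female ventral and -1.07 to 0.0724 in female dorsal libraries, so the male sides overlapped and the female ones did too. The markers themselves were called in 0 of 8 cases between regions by limma, against 27.8% of all genes in female and 0.0% in male hearts. Their median change was -0.84 in male and 0.06 in female hearts, and all 8 were detected in every library. With their mean as a covariate the change of Calcrl was -0.56 in female hearts (adjusted p = 0.134), -0.55 in male hearts (adjusted p = 0.639) and -0.57 over both sexes (adjusted p = 0.0621). With the epicardial mean as a covariate it was 0.91 in female hearts, with an adjusted p of 0.693, and that mean did not overlap between the female sides.

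**Figure D3:**
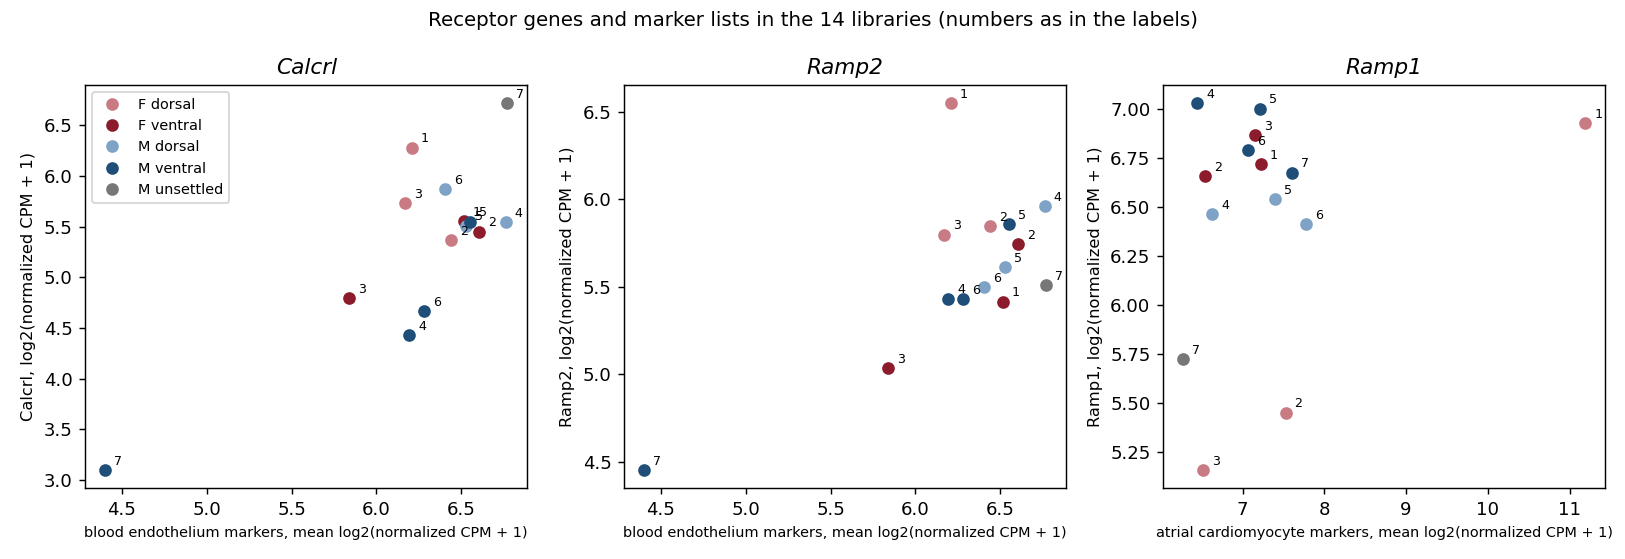
Calcrl and Ramp2 against the mean log2(normalized CPM + 1) of 8 blood endothelial markers and Ramp1 against that of 4 atrial cardiomyocyte markers, in 14 libraries. Points are libraries with their label numbers, coloured by group. Male ventral 7 is alone at the low endothelial end and female dorsal 1 alone at the high atrial end. The Pearson r of Ramp1 with the atrial mean is 0.278, below 0.622 with the fibroblast and 0.53 with the lymphatic endothelial mean.

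Ramp1 (ENSMUSG00000034353, chromosome 1, 91179822 to 91225196, plus strand) encodes the accessory protein of the CGRP receptor. In female dorsal libraries 1 to 3 it measured 120.8, 42.77 and 34.76 normalized CPM, and in female ventral libraries 1 to 3 it measured 104.3, 100 and 115.7. In male dorsal libraries 4 to 6 it measured 87.30, 92.21 and 84.28, in male ventral libraries 4 to 7 it measured 129.7, 127.3, 109.7 and 101.2, and the library of unsettled region held 51.92. Every male ventral library lay above every male dorsal one, which was so for 1 of 5 members and, in either direction, for 14% of all genes tested. In female hearts the ventral libraries lay above dorsal 2 and 3 and below dorsal 1, the library with the high atrial markers. The change was 0.90 in female hearts (95% confidence interval 0.0687 to 1.73, adjusted p = 0.0986), 0.40 in male hearts (0.0898 to 0.713, adjusted p = 0.303) and 0.63 over both sexes (0.167 to 1.1, adjusted p = 0.0553).

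The result turned on female dorsal 1. Without it Ramp1 rose ventrally in female hearts by 1.44 on the log2 scale (adjusted p = 0.0014), and over both sexes by 0.83 (adjusted p = 0.0147). The regional change was then smaller in male than in female hearts by 1.04 (standard error 0.206, adjusted p = 0.0191), a difference that was not called with the library in. With the replicate number as a block, so that each ventral library is set against the dorsal library of its number, Ramp1 was called in female hearts (adjusted p = 0.0382) and over both sexes (adjusted p = 0.0496), and not in male hearts (adjusted p = 0.158). In the female pair numbered 1, Ramp1 was lower ventrally (104.3 normalized CPM) than dorsally (120.8), against the direction of the female call. After removal of GC and length trends the paired call over both sexes was lost (adjusted p = 0.0619). Without female dorsal 3 the female change was 0.56. The part of atrial tissue in the level of female dorsal 1 was not tested.

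**Figure D4:**
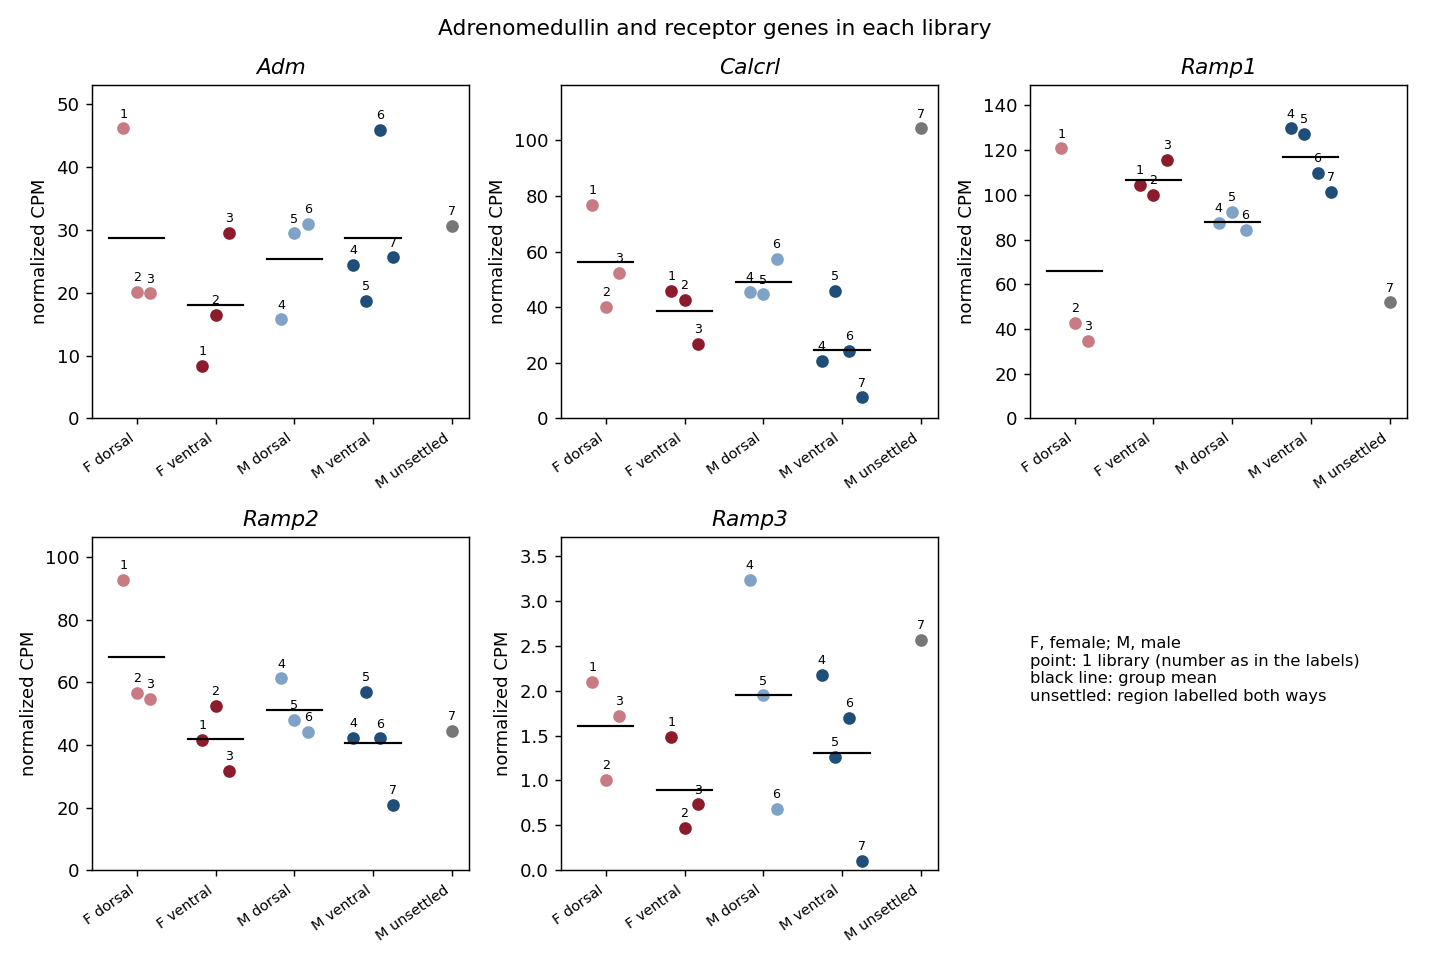
Normalized CPM of the 5 genes in each library. Points are libraries with their label numbers and black lines group means. For Ramp1 the 4 male ventral libraries (101.2 to 129.7) lie above the 3 male dorsal ones (84.28 to 92.21), and female dorsal 1 stands at 120.8, apart from the other female dorsal libraries.

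Ramp2 (ENSMUSG00000001240, chromosome 11, 101246028 to 101259546, plus strand) encodes the accessory protein of the main adrenomedullin receptor. Of the 60-base windows of its exons, 30.165% also occur in Vps25, so its values are uncertain as far as reads were split between these genes. It measured 92.62, 56.60 and 54.63 normalized CPM in female dorsal libraries 1 to 3 and 41.66, 52.53 and 31.82 in female ventral libraries 1 to 3. It measured 61.23, 47.96 and 44.21 in male dorsal libraries 4 to 6 and 42.17, 56.97, 42.07 and 20.91 in male ventral libraries 4 to 7, with 44.51 in the library of unsettled region. The female sides did not overlap, which held for 1 of 5 members and for 44.8% of all genes tested, and the narrowest gap was between 54.63 and 52.53. The male sides overlapped. The change was -0.67 in female hearts (95% confidence interval -1.21 to -0.128, adjusted p = 0.0652), -0.40 in male hearts (-1.05 to 0.258, adjusted p = 0.551) and -0.52 over both sexes (-0.97 to -0.077, adjusted p = 0.0912). With libraries paired by number the female change was called (adjusted p = 0.0321), as it was with the blood endothelial mean as a covariate (-0.70, adjusted p = 0.0499), and over both sexes it was called without male ventral 5 (-0.63, adjusted p = 0.0353). Without female dorsal 1 the female change was -0.43, and the male change was -0.26 without male dorsal 4 and -0.12 without male ventral 7.

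Ramp3 (ENSMUSG00000041046, chromosome 11, 6658521 to 6677475, plus strand) encodes the accessory protein of the second adrenomedullin receptor and was near the limit of detection. The female dorsal libraries 1 to 3 held 2.10, 1.01 and 1.72 normalized CPM and the female ventral libraries 1 to 3 held 1.49, 0.47 and 0.73. The male dorsal libraries 4 to 6 held 3.23, 1.95 and 0.69, the male ventral libraries 4 to 7 held 2.17, 1.26, 1.696 and 0.106, and the library of unsettled region held 2.57. These values stand for 2 to 66 reads, and male ventral 7, with 2 reads, was at the floor of 3 reads. The sides overlapped in both sexes, the changes of -0.47 and -0.36 had adjusted p-values of 0.344 and 0.741. At these low values the female change depended on the scale, at -0.85 with a pseudocount of 0.1 and -0.88 with edgeR, neither of them called, and the male change was -0.0406 without male ventral 7.

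The balance of the accessory genes over Calcrl was also described within each library. The ratio of Ramp1 to Calcrl, each per kilobase, was 2.54, 1.72 and 1.08 in female dorsal libraries 1 to 3 and 3.67, 3.78 and 7.0 in female ventral libraries 1 to 3. It was 3.09, 3.34 and 2.37 in male dorsal libraries 4 to 6 and 10.2, 4.49, 7.28 and 21.7 in male ventral libraries 4 to 7. All 7 ventral libraries lay above all 6 dorsal ones, female dorsal 1 and male ventral 7 included, and the library of unsettled region was the lowest of all at 0.804. The ratio combines the opposite changes of Ramp1 and Calcrl above and is given as a description. It was not tested, and how often ratios of other genes separate the sides was not examined. For Ramp2 it spanned 1.34 to 1.82 in female ventral and 1.55 to 2.08 in female dorsal libraries, and 1.84 to 4.10 in male ventral and 1.14 to 1.98 in male dorsal ones, so both sexes overlapped. Ramp3 stood at 0.0389 to 0.374 of Calcrl and overlapped likewise.

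**Figure D5:**
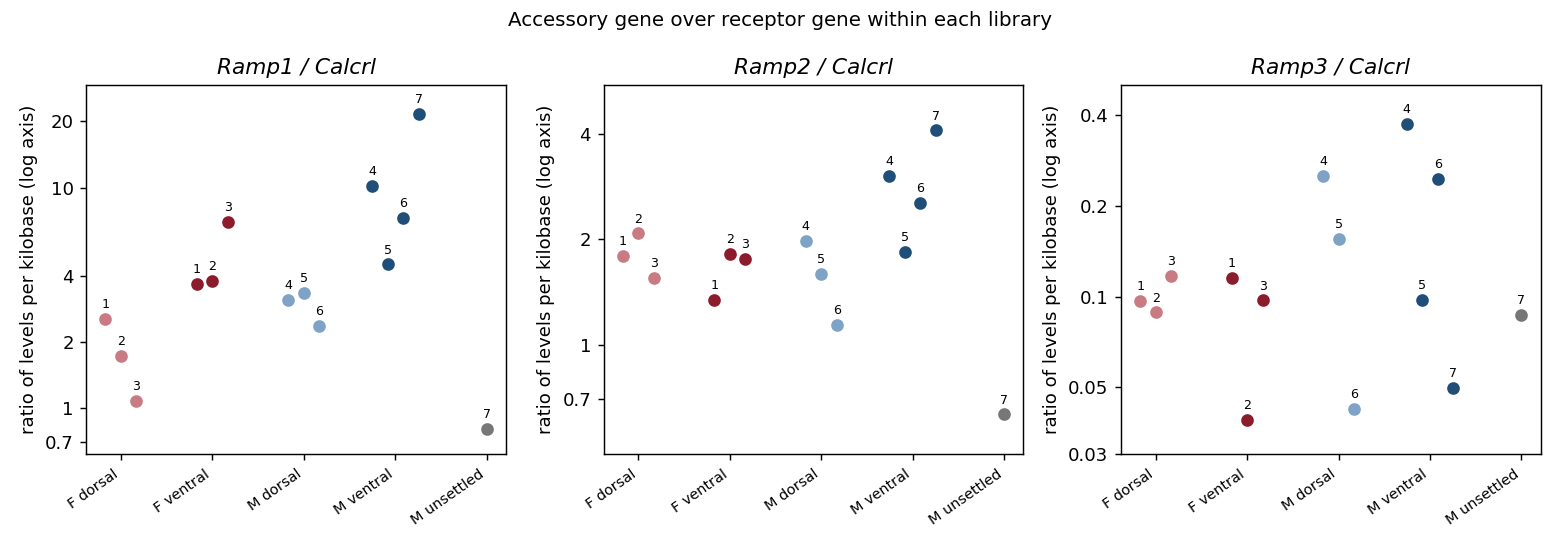
Ratio of the level per kilobase of each accessory gene to that of Calcrl within each library, on log axes. Points are libraries with their label numbers. For Ramp1 the lowest ventral library, at 3.67, lies above the highest dorsal one, at 3.34.

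Between the sexes, none of the 5 genes was called. Male minus female differences, with region as a covariate, were 0.33 for Adm (95% confidence interval -0.333 to 0.992), -0.51 for Calcrl (-1.17 to 0.139), 0.36 for Ramp1 (-0.107 to 0.827), -0.23 for Ramp2 (-0.677 to 0.216) and 0.16 for Ramp3 (-0.447 to 0.777). Adjusted p-values ran from 0.315 to 0.769. The titles number male and female libraries in separate series, so a sex difference cannot be told apart from one between these series. Without both female dorsal 1 and male ventral 7, an alternative added after the data had been seen, Ramp1 was higher in male hearts by 0.63 (adjusted p = 0.0368).

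Of the other ligands and receptors of this family, 8 of 11 listed for it were measured, and Adm2, Iapp and Calcr were not among the listed genes. In female hearts 1 was called higher ventrally and 1 lower, against 27.8% of all genes, and the median change of the 8 was 0.65 beside 0.0113 over all genes. The gene that rose was Calca, which encodes CGRP and calcitonin, from 2.80 to 7.03 normalized CPM on average (1.05, adjusted p = 0.0455). With the replicate block its adjusted p was 0.0515, which ends the call. The gene that fell was Gpr182, an endothelial receptor once proposed to bind adrenomedullin. It averaged 19.6 dorsally and 10.69 ventrally in female hearts (-0.87, adjusted p = 0.0496) and 26.23 and 12.83 in male hearts (-1.16, adjusted p = 0.302), and over both sexes it was called (-1.02, adjusted p = 0.0179). Its female call was lost in 13 of 19 alternatives, for example with edgeR (adjusted p = 0.0603), that of Calca in 14 of 18, and the call over both sexes without female dorsal 1 and male ventral 7 (adjusted p = 0.0599). Ackr3, a scavenging receptor for Cxcl12 and adrenomedullin, averaged 30.07 ventrally and 17.35 dorsally in female hearts and 41.73 and 32.26 in male hearts and was not called. Nor were Calcb, the second CGRP gene, Mme, a peptidase that degrades adrenomedullin, and Crcp, a CGRP receptor component. Their averages over the 4 groups ran from 1.83 to 7.63, 8.77 to 28.3 and 26.4 to 31.4 normalized CPM. Pam, the enzyme that amidates and so activates adrenomedullin and CGRP, was lower in male than in female hearts by 1.06 (adjusted p = 0.00791). It was 1 of 8 called so, against 6.54% of all genes, and sex cannot be told apart from the library series.

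Downstream, Calcrl acts through Gs and cyclic AMP. Of 19 second messenger genes, 3 were called higher ventrally and 5 lower in female hearts, where 14.5% and 13.3% of all genes were called in these directions, with a median change of 0.12 beside 0.0113 over all genes. The adenylyl cyclases Adcy6 (0.86, adjusted p = 0.0042) and Adcy7 (1.2, adjusted p = 0.02) and the receptor kinase Grk2 (0.98, adjusted p = 0.0178) rose. The kinase subunits Prkaca (-2.34, adjusted p = 0.000157) and Prkar1a (-0.99, adjusted p = 0.00205), the small G proteins Rap1a (-0.96, adjusted p = 0.00246) and Rap1b (-1.46, adjusted p = 0.000844) and the gap junction gene Gja1 (-1.11, adjusted p = 0.00553) fell. Over both sexes Adcy3 rose (1.12, adjusted p = 0.0147) and Prkaca, Prkar1a and Gja1 fell, the call of Prkaca being lost in 8 of 29 alternatives, the replicate block among them (adjusted p = 0.0548). Prkaca averaged 464.9 normalized CPM in female dorsal libraries and 90.02, 54.75 and 58.05 in female ventral, male ventral and male dorsal ones. Gnas, which encodes Gs alpha, was lower in male than in female hearts by 1.51 (adjusted p = 1.47e-05), as were Prkaca, Prkar2a, Rap1a and Rap1b. These were 5 of 19 genes, against 6.54% of all genes called lower in male hearts. A sex difference cannot be told apart here from one between the library series. In female hearts the ventricular cardiomyocyte markers summed to 23460 to 34350 ventrally and 32050 to 45740 dorsally, and with their mean as a covariate all 8 female calls were still made. With the epicardial mean as a covariate none of the 8 was made (adjusted p from 0.168 for Prkaca to 0.911 for Grk2). That mean did not overlap between the female sides (6.85 to 7.619 ventrally, 4.525 to 5.513 dorsally). The covariate can therefore hardly be told apart from region there, and no conclusion is drawn from these losses. Adcy7 was also not called without female dorsal 2 or female ventral 2.

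Of 15 oxygen-sensing genes, 3 were called higher and 2 lower ventrally in female hearts, against 14.5% and 13.3% of all genes in these directions, with a median change of -0.28 beside 0.0113 over all genes. The share called is near that of all genes. Egln1, the oxygen sensor (0.64, adjusted p = 0.024), Ndrg1 (1.22, adjusted p = 0.0105) and Car9 (1.85, adjusted p = 0.0176) rose, while Hif1a (-0.66, adjusted p = 0.00609) and Pdk1 (-0.99, adjusted p = 0.002) fell. None of these 5 calls was made with the epicardial covariate, which can hardly be told apart from region in female hearts. Those of Egln1 and Car9 were lost in 5 of 19 and 4 of 18 alternatives. Over both sexes Pgk1 and Pdk1 fell by 0.36 and 0.61 (adjusted p = 0.0357 and 0.015), the call of Pgk1 being lost in 20 of 29 alternatives, the replicate block among them (adjusted p = 0.0865). Egln1 was lower in male than in female hearts by 0.55 (adjusted p = 0.0268), 1 of 15 called so against 6.54% of all genes. This call was lost in 5 of 24 alternatives, and sex cannot be told apart from the library series. Adm itself, a known target of this pathway, was not called beside them.

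The genes whose pattern was most like that of each member over the 14 libraries were found by Pearson correlation of log2(normalized CPM + 1) and are a description, since libraries share their groups and cell content. For Calcrl they were Gpd2 (r = 0.927), Pdp2 (0.899) and Aplnr, the apelin receptor of endothelium (0.887). For Ramp2 they were Exo1 (0.903), Bche (0.892) and Dhrs7 (0.877), and for Ramp1 Cst3 (0.904), Masp1 (0.901) and Cstdc2 (0.895). Adm was nearest to Nptn (0.815), Rcn1 (0.807) and 5830448L01Rik (0.804), and Ramp3 to Rnpep (0.91), Rbm14 (0.844) and Hdac6 (0.842). After the group means had been subtracted, over 13 libraries, these values were 0.783 to 0.951.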

How the data were processed

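RNA of 14 libraries from dissected epicardium and subepicardium, each a pool of 2 hearts, was sequenced as 60-base reads. The authors trimmed adapters with Cutadapt, quantified reads against GRCm38 transcripts with RSEM (1.3.1 in the submitters' processing notes) and normalized with limma. The deposited signal values are normalized CPM. Each value is a whole number of reads plus 0.5, scaled to an effective library size, and reads were recovered within 0.02 of a whole read for 100% of values. That unit is not a raw count, so limma 3.58.1 in R 4.3.3 (lmFit, eBayes with trend) was run on log2(value + 1) for genes that reached 1 in 3 or more libraries of the fit, with Benjamini-Hochberg adjustment over all of them and calls under 0.05. It was also run on simulated data that held no pairs of libraries and no differences in cell content. That run does not cover these features of the libraries. The comparisons were ventral against dorsal in each sex, over both sexes with sex as a covariate, the difference of that change between the sexes, and the sexes with region as a covariate.

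The members and lists were chosen with earlier results of these data known. Named genes were the 5 members, every measured gene of the ligand and receptor list, genes of the second messenger and oxygen-sensing lists called in at least 1 comparison, and for each member the 3 genes most correlated with it. A gene that this rule names is not reported here. Exons, lengths and GC content came from GENCODE M21, which held 99.9% of the gene identifiers, and promoter sequences from RefSeq (GRCm38.p6). A value was taken as at the floor at 3 reads or fewer, which covers counting error only.

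After subtracting group means, ventral and dorsal libraries with the same number correlated over 15870 genes, at 0.186, 0.169 and 0.269 (female pairs) and at 0.425, 0.175 and 0.349 (male pairs). The numbers were taken as a possible pairing on this check of the data alone. That pairing entered only the replicate block, and the main comparisons were unpaired. The alternatives tried were quantile normalization or median-of-ratios scaling, a pseudocount of 0.1, a minimum mean of 10 or no filter, eBayes with no trend, edgeR 4.0.16 on the recovered reads, removal of GC and length trends, a replicate block, marker means as covariates, either reading of the library of unsettled region, and leaving out libraries.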

Additional observations from a re-analysis of the deposited data

Results flagged for a closer look

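Calcrl stood at 104.3 normalized CPM in the male library of unsettled region, which entered only stated alternatives, above the 13 other libraries, of which the highest held 76.73.

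Of 49 values examined for a library far from the others of the male ventral group, the single group of 4 libraries, 3 were found, and chance marks about 1 in 20 such groups. Grk2 was 12.44 normalized CPM in male ventral 5, below the other 3. The summed lymphatic endothelial markers were 839.6 in male ventral 4, and the summed erythroid markers 53310 in male ventral 7, each above the other 3 libraries. None of the 5 members was among them.

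The regional change differed between the sexes for 3 of 19 second messenger genes and 2.73% of all genes tested, by limma's test of the difference (male minus female): Prkaca by 2.206 (adjusted p = 0.00111), Rap1a by 1.327 (adjusted p = 0.00406) and Rap1b by 1.931 (adjusted p = 0.000818). The numbering of the libraries cannot be told apart from sex here.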

How the results depend on the processing

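No member was called in the main unpaired comparisons, and some alternatives, paired and unpaired, did call members. In female hearts 2 members were called with the replicate block, also after removal of GC and length trends, 1 with the blood endothelial covariate, and 0 to 1 when each library was left out (1 without female dorsal 1). Over both sexes 2 were called with the replicate block, 0 with the block after GC and length removal, 2 with a mean of at least 10, 1 with quantile normalization (Ramp1, adjusted p = 0.0414), 2 with the library of unsettled region as dorsal, 1 without female dorsal 1 and male ventral 7, and 0 to 2 when each library was left out. Without these same libraries 1 member was called for the difference between the sexes, where leaving out single libraries gave 0 to 1, and 1 for sex, where it gave 0. The block changed no call of a member in male hearts or for the difference.

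Directions turned as follows, and the cause was not tested. The epicardial mean did not overlap between the female sides, so that covariate can hardly be told apart from region in female hearts. With the epicardial covariate the female changes were 0.906 for Calcrl, 0.292 for Ramp2, 0.869 for Ramp3, -0.389 for Egln1 and -0.702 for Ndrg1, the male ones -0.16 for Adm and 0.0516 for Ramp3, and Ramp3 over both sexes 0.204. With the endothelial covariate the male changes were 0.0341 for Ramp2 and 0.119 for Ramp3, and with the cardiomyocyte covariate -0.134 for Adm, 0.0184 for Ramp2 and 0.21 for Ramp3. Leaving out single libraries gave -0.15 to 0.321 for Adm in male hearts, -0.243 to 0.432 for the Ramp3 difference and, for Ramp2 between the sexes, -0.334 to 0.0383 with the added pair of libraries included. The sex difference of Ramp3 was -0.00304 after GC and length removal and -0.00406 with libraries of a number averaged.

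Over alternatives all genes called ranged from 30 to 4318 in female hearts, 0 to 76 in male hearts, 0 to 3646 over both sexes, 260 to 804 for the difference and 944 to 1859 for sex. The share called with the replicate block alone is not given here, so the member calls made with it have no background beside them. With principal transcript lengths the level of Ramp2 per kilobase was 39.2 and its ratio to Calcrl 5.05 instead of 1.8. The fewest reads stood behind Ramp3, at 2 to 66 per library.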
